A study of Mus musculus with 18 samples.

Results

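Lmx1b, Tlx3, Prrxl1, Lbx1, Pax2, Gbx1, Lhx1 and Maf are 8 transcription factor genes that mark neurons of the spinal dorsal horn. They were chosen by name from 34579 loci measured in dorsal spinal tissue (L3-5) of C57BL/6 mice (C57BL/6N in the study's methods) aged 3 months. Where a name stood on several rows of a table, the row with the highest mean over the groups was read. For Prrxl1 that row lay on the strand opposite to the gene, so counts and medians are also given with its row on the annotated strand, which had a level under 0.5 FPKM. All mice had received an rAAV by intraspinal injection on both sides. The control vector carried LacZ, the second carried wild-type HDAC4 (HDAC4 wt), and the third carried HDAC4 3SA, a mutant of the export phosphorylation sites that stays in the nucleus. Mice of each vector then received an intraplantar injection of saline or of Complete Freund's adjuvant (CFA), an inflammatory agent, into 1 hindpaw, and tissue was taken after 24 h. The 6 groups held 3 mice each, 18 in all, and the sex of these mice was not given in the sources used here. The study's scheme shows a CMV promoter, which is not restricted to a cell type, for LacZ and a synapsin promoter, which is neuronal, for both forms of HDAC4, so that vector and promoter cannot be told apart between LacZ and HDAC4 mice.

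Each table gave 1 level per group, in FPKM (sequenced fragments per kilobase of transcript, relative to all mapped fragments). No value per mouse, count or depth was part of the tables used. The levels alone allow neither an SD nor a test, and the columns of the study's own tests were not used. Every comparison is therefore a description of the group levels. The log2 change is that of CFA over saline with 0.1 FPKM added to each, and 0.5 in either direction was taken as the fold to pass. The vectors were normalised in separate runs, so levels of different vectors are only set side by side. Hdac4 had 7.41 and 7.72 FPKM in the LacZ groups (saline, then CFA), 10.1 and 10.8 FPKM in the HDAC4 wt groups, and 8.86 and 8.81 FPKM in the HDAC4 3SA groups, and reads of the endogenous gene and of the transgene were not separated.

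Dorsal horn neurons arise from progenitors of the dorsal neural tube and settle into excitatory neurons, which release glutamate, and inhibitory neurons, which release GABA and glycine. Homeodomain factors take part in this choice. Lbx1 is switched on in the late-born dorsal classes from which most neurons of the superficial laminae descend. Tlx3 promotes the glutamatergic fate over the GABAergic fate, and Lmx1b and Prrxl1, also called Drg11, are maintained in excitatory neurons of the superficial dorsal horn. Pax2, Lhx1 and Gbx1 mark the inhibitory counterpart. Maf, a basic leucine zipper factor, is found in deeper dorsal horn neurons, and also in sensory neurons and in macrophages. Several of these genes stay on in the adult cord, where they serve as labels of cell classes that carry touch, itch and pain signals.

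The stretches directly upstream of Lmx1b, Tlx3 and Lhx1 are shown because Lmx1b and Tlx3 passed the fold with HDAC4 3SA (a log2 change beyond 0.5 after CFA) and Lhx1 had the lowest log2 change with HDAC4 wt. Each is the 250 bases before the start site in RefSeq (GRCm38.p6), given from 5′ to 3′ on the strand of the gene, with the E-box (CANNTG, read on both strands) in capitals. All of them lie on the minus strand, at chr2:33641099-33641348 for Lmx1b, at chr11:33203589-33203838 for Tlx3 and at chr11:84525535-84525784 for Lhx1.
Lmx1b: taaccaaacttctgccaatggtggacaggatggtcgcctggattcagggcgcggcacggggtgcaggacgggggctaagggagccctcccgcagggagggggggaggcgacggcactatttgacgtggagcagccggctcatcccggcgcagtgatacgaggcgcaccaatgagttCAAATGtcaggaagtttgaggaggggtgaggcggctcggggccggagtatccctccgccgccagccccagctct
Tlx3: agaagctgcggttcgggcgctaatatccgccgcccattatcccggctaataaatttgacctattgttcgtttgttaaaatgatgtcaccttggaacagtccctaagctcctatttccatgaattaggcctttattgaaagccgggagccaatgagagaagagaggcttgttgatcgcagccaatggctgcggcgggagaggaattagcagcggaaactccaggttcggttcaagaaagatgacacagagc
Lhx1: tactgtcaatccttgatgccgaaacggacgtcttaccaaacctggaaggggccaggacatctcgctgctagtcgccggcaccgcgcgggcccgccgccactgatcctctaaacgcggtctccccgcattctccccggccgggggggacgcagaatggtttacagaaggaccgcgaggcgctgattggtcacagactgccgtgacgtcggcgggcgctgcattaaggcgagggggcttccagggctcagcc

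Such windows were at hand for 5 of the 8 members, 7 windows in all because Pax2 has 3 start sites. An E-box, the core bound by basic helix-loop-helix factors, stood in 3 of these 7 windows, namely that of Lmx1b and 2 of Pax2, and in 66.2% of 32851 windows of all genes. The homeodomain core TAATTA, likewise read on both strands, was in 0 of the 7 windows against 4.84% of all. The binding motif of MEF2, a partner of class IIa histone deacetylases such as HDAC4, was also in 0 of 7 against 2.92% of all. The G and C content of the members' windows ran from 48.8% for Tlx3 to 72.8% for a window of Pax2, and 6 of the 7 lay above the median of all windows, 52.4%. A match or its absence describes these letters only.

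In LacZ mice, 7 of the 8 members were higher after CFA than after saline, while 50.2% of 21440 loci of at least 0.5 FPKM on average were higher. The median log2 change of the members was 0.15, against a median over all loci of 0.00. With the annotated row of Prrxl1, 6 of 8 were higher and the median was again 0.15. The changes were small: 0 of 8 passed the fold in either direction, against 9.52% of all loci. With a lower limit of 0.25, Tlx3 and Maf were higher, 2 of 8 against 12.7% of all loci.

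With HDAC4 wt, the order of the groups was turned around. Here 7 of 8 members were lower after CFA, against 47.6% of 22069 loci, with a median of -0.32 against 0.01 over all loci. With the annotated row of Prrxl1, 8 of 8 were lower and the median was again -0.32. No member passed the fold, 0 of 8 against 17.5% of loci in either direction. Lmx1b, Tlx3, Lbx1, Gbx1 and Lhx1 were lower by more than 0.25, 5 of 8 against 14.8% of all loci.

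With HDAC4 3SA, 7 of 8 members were again lower after CFA, against 48.2% of 22036 loci, and the median of the members was -0.37 against 0.01 over all loci. With the annotated row of Prrxl1, 8 of 8 were lower with a median of -0.44, and without Prrxl1 7 of 7 were lower with a median of -0.43. Lmx1b and Tlx3 passed the fold, 2 of 8 against 17.3% of loci in either direction and 5.92% of loci that were lower. The annotated row of Prrxl1, at -0.69, was also past the fold and made 3 of 8. Lmx1b, Tlx3, Lbx1, Gbx1 and Lhx1 were lower by more than 0.25, 5 of 8 against 16% of all loci. The quartiles of the log2 changes of all loci lay at -0.10 and 0.11 in LacZ, at -0.12 and 0.19 in HDAC4 wt and at -0.15 and 0.20 in HDAC4 3SA mice. The opposite-strand row of Prrxl1 was the 1 row among the 8 read that was higher with both HDAC4 vectors, and Lhx1, apart from the annotated row of Prrxl1, the 1 member that was lower in LacZ mice.

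**Figure D1:**
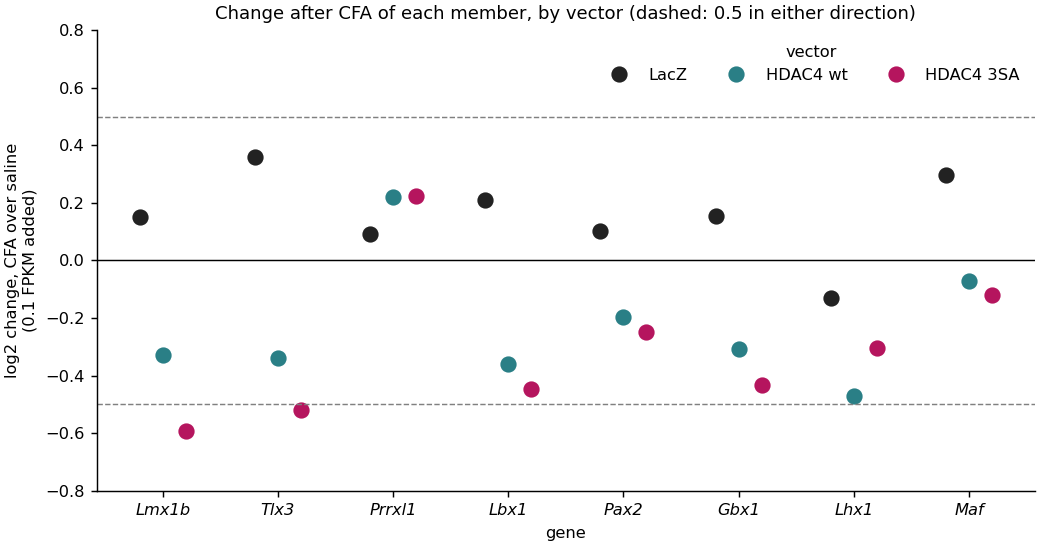
Log2 change (CFA over saline, 0.1 FPKM added, vertical axis) of each of the 8 members (horizontal axis), with 1 point per vector and dashed lines at 0.5 in either direction. The LacZ points lie above 0 for 7 members and the HDAC4 points below 0 for 7 members, with Lmx1b (-0.59) and Tlx3 (-0.52) below the lower line in HDAC4 3SA mice. Prrxl1 is shown by its row on the opposite strand.

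Among the factors of excitatory neurons, Lmx1b, a LIM homeodomain factor on chromosome 2 (locus 33560962 to 33646355, GRCm38), had 7.39 FPKM in LacZ mice after saline and 8.22 FPKM after CFA. It had 9.68 and 7.69 FPKM with HDAC4 wt, and 9.11 and 6.00 FPKM with HDAC4 3SA. The CFA group was thus the higher one with LacZ and the lower one with both forms of HDAC4. Set side by side only, the level listed for the HDAC4 3SA CFA group was the lowest. The log2 changes were 0.15, -0.33 and -0.59, the last a fold of 0.659 or 34.1% below saline. The log2 change with HDAC4 3SA was 0.74 below that with LacZ, a difference that was not tested.

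Tlx3, a homeodomain factor that selects the glutamatergic fate, lies on chromosome 11 (locus 33200699 to 33206169). Its levels after saline and CFA were 4.62 and 5.95 FPKM with LacZ, 5.94 and 4.68 FPKM with HDAC4 wt, and 5.32 and 3.68 FPKM with HDAC4 3SA. Tlx3 had the largest log2 change of the members in LacZ mice, 0.36, and changes of -0.34 and -0.52 with HDAC4 wt and HDAC4 3SA. The distance between its changes with HDAC4 3SA and with LacZ, -0.88, was the widest among the members.

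Prrxl1, a paired-type homeodomain factor needed for the wiring of pain afferents into the superficial dorsal horn, stood on 2 rows of each table, both for chromosome 14 from 32596271 to 32630972. The row with the higher level had 5.44 and 5.80 FPKM with LacZ, 4.84 and 5.66 FPKM with HDAC4 wt, and 3.40 and 3.98 FPKM with HDAC4 3SA, which gave log2 changes of 0.09, 0.22 and 0.22. It was higher after CFA with every vector, unlike the other excitatory factors. This row, however, lay on the strand opposite to the annotated gene, where GENCODE M21 places no gene within the locus. The strand was read from the numbering of the rows, which run through each chromosome strand by strand, and this reading matched the annotated strand at 12774 of 12965 loci with a single row (98.5%).

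The row on the annotated strand of Prrxl1 had 0.416 and 0.331 FPKM with LacZ, 0.379 and 0.321 FPKM with HDAC4 wt, and 0.409 and 0.216 FPKM with HDAC4 3SA. It was lower after CFA with each vector, with log2 changes of -0.26, -0.19 and -0.69, so that the direction given for Prrxl1 depended on the row. Its level was under the minimum of 0.5 FPKM set for all loci. What the transcripts of the opposite row are was not tested, and its values are not a measure of the annotated gene.

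Pax2 and Gbx1 also stood on 2 rows each, and for both the row with the higher level was that of the annotated strand. The opposite row of Pax2, where the antisense genes Gm20395 and 1700039E22Rik are annotated, had 2.62 and 2.98 FPKM with LacZ, 1.51 and 1.62 FPKM with HDAC4 wt, and 2.19 and 2.25 FPKM with HDAC4 3SA. The opposite row of Gbx1, where no gene is annotated, had 1.04 and 1.89 FPKM with LacZ, 1.20 and 1.78 FPKM with HDAC4 wt, and 2.02 and 2.12 FPKM with HDAC4 3SA. Both opposite rows were higher after CFA with every vector, as was that of Prrxl1, while the annotated rows of Pax2 and Gbx1 were lower after CFA with both HDAC4 vectors. Libraries were strand-specific, but whether the counting used the strand is not given in the sources used here.

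**Figure D2:**
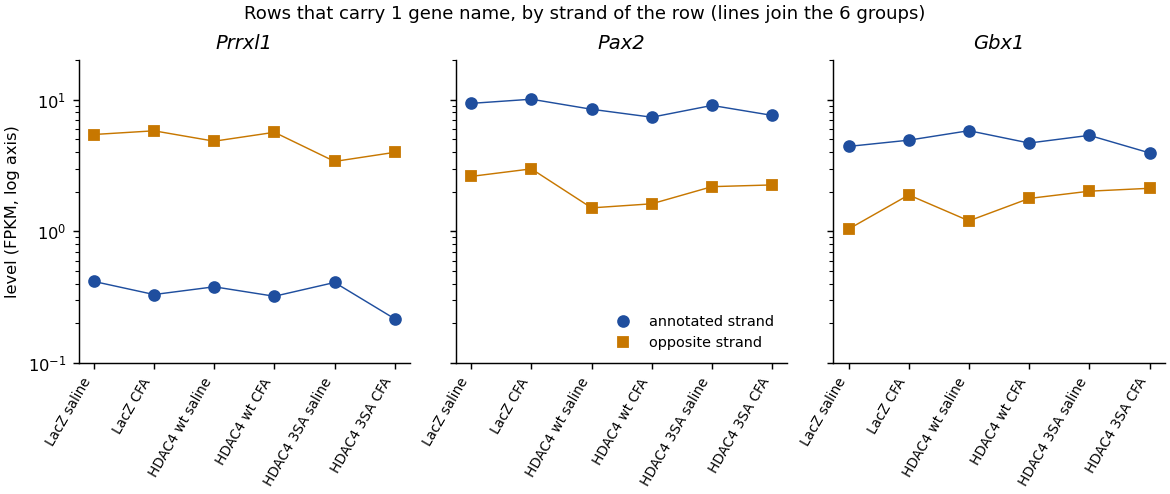
Level in FPKM (log axis) in the 6 groups of the rows that carry the names Prrxl1, Pax2 and Gbx1, with circles for the annotated and squares for the opposite strand of the gene. For Prrxl1 the squares (3.40 to 5.80 FPKM) lie above the circles (0.216 to 0.416 FPKM), and for Pax2 and Gbx1 the circles lie above the squares.

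Lbx1, the factor shared by the late-born excitatory and inhibitory classes, lies on chromosome 19 (locus 45232537 to 45239732). It had 5.83 and 6.76 FPKM with LacZ, 6.25 and 4.85 FPKM with HDAC4 wt, and 5.48 and 3.99 FPKM with HDAC4 3SA. Its log2 changes of 0.21, -0.36 and -0.45 had the same signs as those of Lmx1b and Tlx3.

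Among the factors of inhibitory neurons, Pax2, a paired box factor on chromosome 19 (locus 44755479 to 44838296), had 9.38 and 10.1 FPKM with LacZ, 8.46 and 7.36 FPKM with HDAC4 wt, and 9.05 and 7.60 FPKM with HDAC4 3SA. Its log2 changes were 0.10, -0.20 and -0.25, with the HDAC4 3SA change just inside the limit of 0.25. Apart from Prrxl1, where this held for both rows, Pax2 was the only member whose saline level was lower in both HDAC4 tables than in the LacZ table.

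Gbx1, a homeodomain factor of a subset of inhibitory dorsal horn neurons, lies on chromosome 5 (locus 24502750 to 24527551). It had 4.42 and 4.93 FPKM with LacZ, 5.82 and 4.69 FPKM with HDAC4 wt, and 5.36 and 3.94 FPKM with HDAC4 3SA. The log2 changes were 0.15, -0.31 and -0.43. Of all members, Gbx1 lay nearest to the mean profile of the other 7 over the 6 groups, with a root mean square difference of 0.101 on the log2 scale, and the opposite-strand row of Prrxl1 lay furthest, at 0.309.

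Lhx1, a LIM homeodomain factor of inhibitory neurons on chromosome 11 (locus 84517969 to 84535834), had the lowest level in every group of the 7 members read on their annotated strand, above the annotated row of Prrxl1. Its levels were 2.78 and 2.53 FPKM with LacZ, 3.08 and 2.19 FPKM with HDAC4 wt, and 2.95 and 2.37 FPKM with HDAC4 3SA. The CFA group was the lower one with each vector, with log2 changes of -0.13, -0.47 and -0.31. Lhx1 was also the only member read on its annotated strand whose change was further below 0 with HDAC4 wt than with HDAC4 3SA, by 0.17.

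Maf, on chromosome 8 (locus 115682930 to 115707925), had the highest level of the members in every group and made up between 42.6% and 52.6% of their summed FPKM. It had 29.6 and 36.4 FPKM with LacZ, 39.2 and 37.2 FPKM with HDAC4 wt, and 38.0 and 35.0 FPKM with HDAC4 3SA. The log2 change was 0.30 in LacZ mice. The changes of -0.07 with HDAC4 wt and -0.12 with HDAC4 3SA were the smallest in size among the members for each of these vectors.

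**Figure D3:**
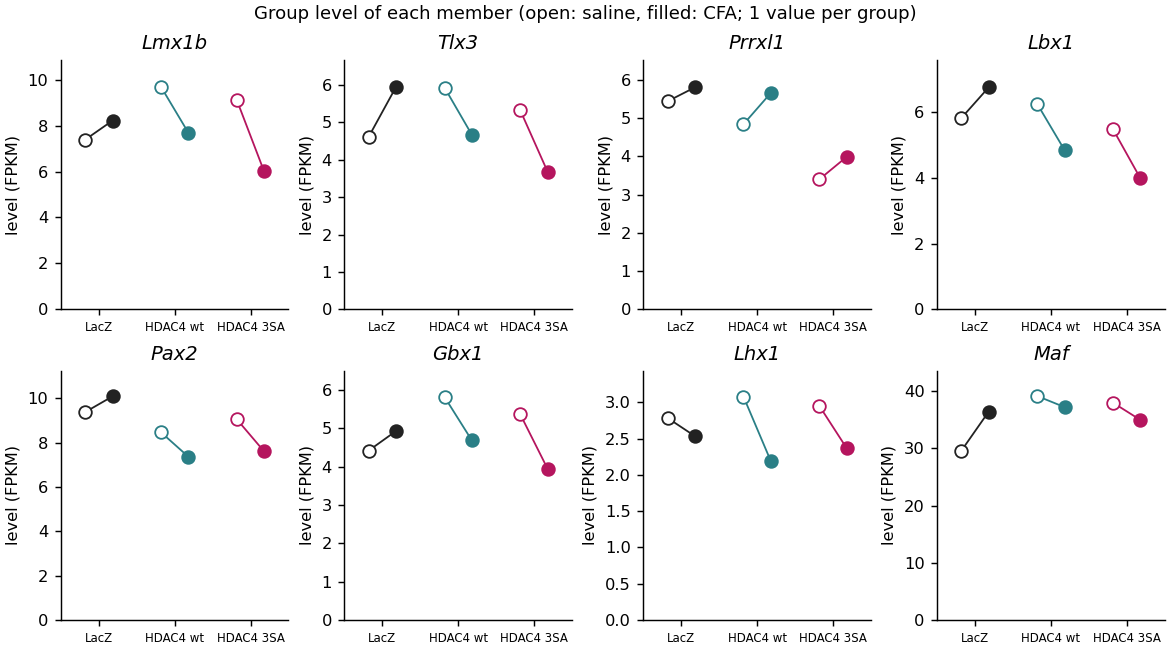
Level (FPKM, vertical axis from 0) of each member in the saline (open circle) and CFA (filled circle) group of each vector (horizontal axis), 1 value per group. Lines slope up with LacZ for 7 genes and down with HDAC4 wt and HDAC4 3SA for 7 genes. The Prrxl1 panel shows the row on the strand opposite to the gene.

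Next to Lmx1b and Lhx1, noncoding genes on the plus strand start within the windows printed above and run away from the coding gene. C130021I20Rik, beside Lmx1b (chr2:33641193-33646354), had 7.83 and 8.68 FPKM with LacZ, 9.98 and 7.67 FPKM with HDAC4 wt, and 9.30 and 6.22 FPKM with HDAC4 3SA. Its log2 changes of 0.15, -0.37 and -0.57 lay within 0.05 of those of Lmx1b with every vector. Lhx1os, beside Lhx1 (chr11:84525660-84535831), had log2 changes of 0.10, -0.30 and -0.28, and thus differed in sign from Lhx1 in LacZ mice. Gm15655, antisense within Maf, had log2 changes of -0.04, -0.09 and -0.15 and also differed in sign from Maf with LacZ. These neighbours were chosen by place with the values known.

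The excitatory and inhibitory factors did not part clearly from each other. The sum of Lmx1b, Tlx3 and Prrxl1 over the sum of Pax2, Gbx1 and Lhx1 was 1.05 and 1.14 with LacZ (saline, then CFA), 1.18 and 1.27 with HDAC4 wt, and 1.03 and 0.982 with HDAC4 3SA. Without Prrxl1, the ratio was 0.724 and 0.807 with LacZ, 0.900 and 0.868 with HDAC4 wt, and 0.831 and 0.696 with HDAC4 3SA. The HDAC4 wt ratio was thus higher after CFA with the opposite-strand row of Prrxl1 and lower without it. The ratio of Lmx1b to Pax2, 1 marker of each class, was 0.788 and 0.815 with LacZ, 1.14 and 1.04 with HDAC4 wt, and 1.01 and 0.790 with HDAC4 3SA. For the transporters that load the transmitters, the ratio of Slc17a6 (glutamate) to Slc32a1 (GABA and glycine) stayed between 0.952 and 1.08 in the 6 groups.

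Other genes of the same neurons were read from lists. The other dorsal neuron transcription factors, of which 13 of 20 listed genes reached the minimum level and could be matched, had median log2 changes of 0.10 with LacZ, -0.02 with HDAC4 wt and -0.30 with HDAC4 3SA. With LacZ, 11 of the 13 were higher, with HDAC4 wt 6 were higher and 7 lower, and with HDAC4 3SA 9 were lower. Zic1, a zinc finger factor of the dorsal neural tube, had 17.5 and 18.5 FPKM with LacZ, 19.8 and 15.9 FPKM with HDAC4 wt, and 18.3 and 13.7 FPKM with HDAC4 3SA, the same order of saline and CFA as most members. Among those past the fold with HDAC4 3SA were Tfap2b (-0.71), of inhibitory dorsal classes, and Isl1 (1.06), which is also a gene of motor and sensory neurons. Mafa, another gene of this list, was again read on the strand opposite to its annotation, and with annotated rows the medians were 0.10, -0.18 and -0.31.

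The peptides and markers of excitatory dorsal horn neurons followed the same order as the members. Of 9 genes, 8 were higher after CFA with LacZ, 8 were lower with HDAC4 wt and 9 were lower with HDAC4 3SA, with medians of 0.18, -0.37 and -0.35. Sst, the somatostatin gene, had 86.8 and 108 FPKM with LacZ, 104 and 78.5 FPKM with HDAC4 wt, and 85.5 and 72.1 FPKM with HDAC4 3SA. Grp, gastrin-releasing peptide, passed the fold with LacZ (0.53), and Nmu, neuromedin U (-0.71), and Cck, cholecystokinin (-0.63), passed it with HDAC4 3SA. Of 10 genes of inhibitory dorsal horn neurons, 7 were higher with LacZ, 8 lower with HDAC4 wt and 9 lower with HDAC4 3SA, with medians of 0.23, -0.15 and -0.20. Pdyn, prodynorphin, had 17.4 and 34.3 FPKM with LacZ, a log2 change of 0.97 and the largest of this list, against 0.28 with HDAC4 wt and -0.17 with HDAC4 3SA. Gal, galanin, also passed the fold with LacZ, at 0.67, and Cdh3, a cadherin, passed it with HDAC4 3SA, at -0.51.

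The genes for transmitter release had median changes near 0 in LacZ mice. The 4 genes for GABA and glycine release had median changes of -0.07, -0.16 and -0.34 with LacZ, HDAC4 wt and HDAC4 3SA, and 4 of 4 were lower after CFA with LacZ. Gad1, which makes GABA, went from 91.3 to 64.0 FPKM with HDAC4 3SA, a log2 change of -0.51. Slc17a6, the glutamate transporter of dorsal horn neurons, had changes of -0.08, -0.23 and -0.42. Slc17a8, a glutamate transporter of a smaller set of neurons and the other gene of the glutamate list at the minimum level, had 0.762 and 0.850 FPKM with LacZ and changes of 0.14, -0.34 and -0.33.

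**Figure D4:**
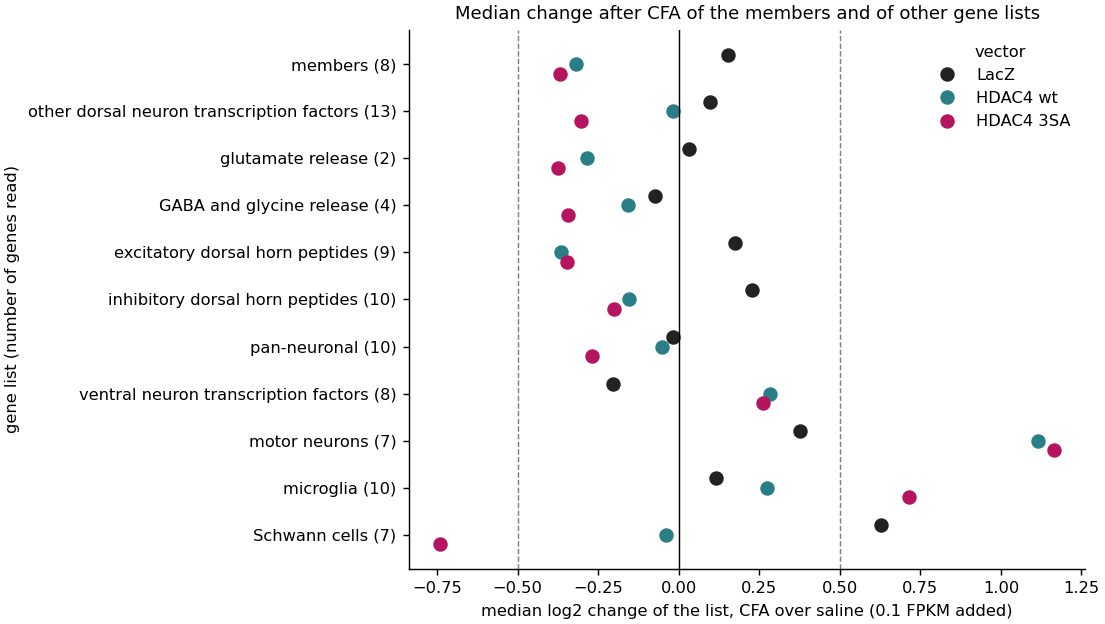
Median log2 change (CFA over saline, horizontal axis) of the 8 members and of 10 gene lists (vertical axis, with the number of genes read), 1 point per vector and dashed lines at 0.5 in either direction. The members lie at 0.15, -0.32 and -0.37, and the motor neuron list lies at 0.38, 1.12 and 1.17.

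In bulk tissue, fewer cells of a type and less RNA per cell cannot be told apart, and genes of other cell types differed between the same groups. Motor neurons lie in the ventral cord and are no part of the dorsal horn. The 7 motor neuron genes had median log2 changes of 0.38 with LacZ, 1.12 with HDAC4 wt and 1.17 with HDAC4 3SA, and 6 of 7 passed the fold upward with each form of HDAC4, with Mmp9 as the exception. Chat, the enzyme that makes acetylcholine, had 4.57 and 5.97 FPKM with LacZ, 2.25 and 5.09 FPKM with HDAC4 wt, and 4.45 and 11.0 FPKM with HDAC4 3SA. The summed motor neuron genes were 60.2 and 77.5 FPKM with LacZ, 27.4 and 61.4 FPKM with HDAC4 wt, and 43.7 and 98.5 FPKM with HDAC4 3SA. The 7 members other than Maf summed to 39.9 and 44.3 FPKM with LacZ, 44.1 and 37.1 FPKM with HDAC4 wt, and 40.7 and 31.6 FPKM with HDAC4 3SA. These member sums include the opposite-strand row of Prrxl1. Set side by side only, since the vectors were normalised in separate runs, the HDAC4 3SA CFA group had the highest motor neuron sum and the lowest sum of these members. The HDAC4 wt saline group had the lowest motor neuron sum. The part of these shifts in the members' values was not tested.

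**Figure D5:**
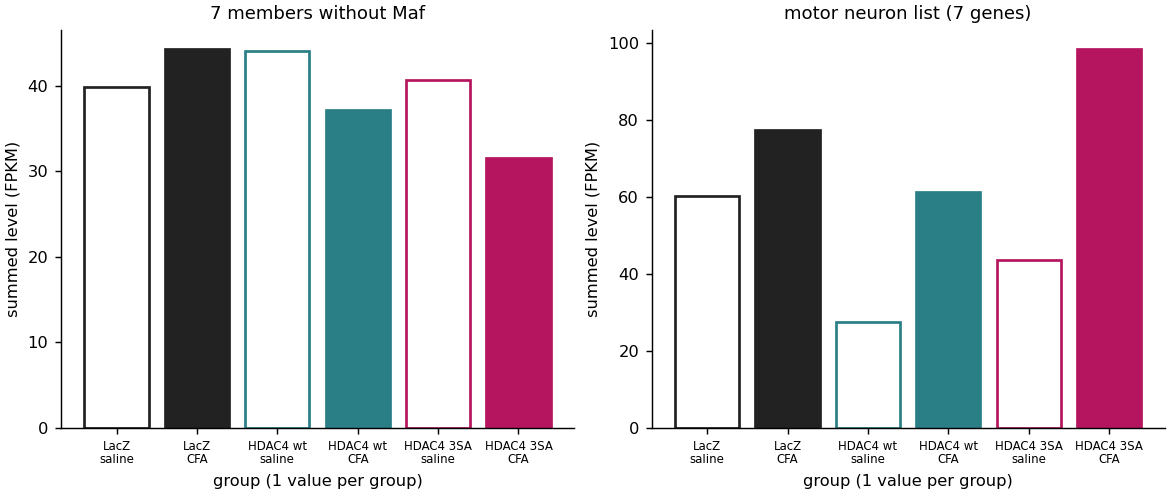
Summed FPKM (vertical axes from 0) of the 7 members without Maf (left) and of the 7 motor neuron genes (right) in the 6 groups, open bars for saline and filled bars for CFA, 1 value per group and no error. The HDAC4 3SA CFA group has the lowest bar on the left (31.6 FPKM) and the highest on the right (98.5 FPKM). The sums on the left include the opposite-strand row of Prrxl1, and bars of different vectors are only set side by side.

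Transcription factors of ventral neurons also differed from the members in direction. Of 8 that reached the minimum level, 6 were lower after CFA with LacZ, 7 higher with HDAC4 wt and 8 higher with HDAC4 3SA, with medians of -0.20, 0.28 and 0.26. Mnx1, a homeodomain factor of motor neurons, had 0.592 and 2.15 FPKM with HDAC4 3SA, a log2 change of 1.70, and Nkx6-1, of ventral progenitors and motor neurons, had 1.11 and 3.00 FPKM, a change of 1.36. The ratio of the 8 summed members to the summed motor neuron genes was 1.15 and 1.04 with LacZ, 3.03 and 1.21 with HDAC4 wt, and 1.80 and 0.676 with HDAC4 3SA. Without Maf and Prrxl1, the ratio was 0.571 and 0.497 with LacZ, 1.43 and 0.512 with HDAC4 wt, and 0.853 and 0.280 with HDAC4 3SA.

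Genes shared by all neurons went both ways. The 10 pan-neuronal genes had median log2 changes of -0.02, -0.05 and -0.27 with LacZ, HDAC4 wt and HDAC4 3SA, and with HDAC4 3SA 6 of 10 were lower and 4 higher. Syt1 (-0.48) and Snap25 (-0.41), genes of synaptic vesicle release, had changes with HDAC4 3SA as large as those of several members. The 4 that were higher were Tubb3 (0.20), Nefl (0.14), Stmn2 (0.04) and Uchl1 (0.01). Nefm, among the lower ones, stood on 12 rows, and the row read had only 0.495 to 0.756 FPKM. Per 1000 FPKM of the summed pan-neuronal genes, the members stood at 23.7 and 27.9 FPKM with LacZ, 42.9 and 38.5 FPKM with HDAC4 wt, and 35.9 and 33.8 FPKM with HDAC4 3SA, so that the order of saline and CFA was the same as for the members alone. The log2 changes of this ratio were 0.23, -0.16 and -0.09, and without Maf 0.17, -0.24 and -0.21. Relative to the pan-neuronal sum, the changes of Lmx1b and Tlx3 with HDAC4 3SA were -0.44 and -0.37, inside the fold. This scale leaned on 1 gene. With HDAC4 3SA the sum went from 2192 to 1972 FPKM, and Snap25, its highest gene, went from 861 to 646 FPKM. A scale without Snap25 was not computed. Between tables, the pan-neuronal sum was 2932 FPKM in LacZ and 1940 and 2192 FPKM in HDAC4 wt and HDAC4 3SA saline mice.

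Macrophages express Maf, and microglia, the macrophages of the cord, differed between groups. The 10 microglial genes summed to 182 and 208 FPKM with LacZ, 974 and 1232 FPKM with HDAC4 wt, and 738 and 1360 FPKM with HDAC4 3SA, with 7 of 10 past the fold upward with HDAC4 3SA. Maf was likewise higher in saline mice with HDAC4 wt (39.2 FPKM) and HDAC4 3SA (38.0 FPKM) than with LacZ (29.6 FPKM), levels that are only set side by side, but within HDAC4 3SA it went from 38.0 to 35.0 FPKM after CFA. The 7 genes of other macrophages had medians of 0.35, 0.07 and 0.06 with LacZ, HDAC4 wt and HDAC4 3SA, and Maf had 0.30, -0.07 and -0.12. The part of these cells in the level of Maf was not tested.

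Schwann cells and sensory neurons belong to the nerve roots and ganglia rather than the cord. The 7 Schwann cell genes had medians of 0.63 with LacZ, -0.04 with HDAC4 wt and -0.74 with HDAC4 3SA, with 6 of 7 past the fold upward with LacZ and 5 of 7 past it downward with HDAC4 3SA. Of the sensory neuron list, which bears on Tlx3, Prrxl1 and Maf because these are also active in sensory neurons, 4 of 10 genes could be read, with medians of -0.01, 0.32 and 0.23. Avil, 1 of these 4, was read on the strand opposite to its annotation, and with annotated rows the medians were 0.00, 0.07 and 0.61. P2rx3, a defining gene of pain-sensing neurons, stayed at or under 0.598 FPKM in all 6 groups, while Calca, which motor neurons also express, had 15.5 to 34.4 FPKM. The part of root tissue in the members' values was not tested.

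Of 16240 loci that name 1 gene and reach 1 FPKM on average, those nearest to the mean profile of the members over the 6 groups were Proz, Htr1d and Car11, with root mean square differences of 0.0284, 0.0327 and 0.0343 on the log2 scale. Htr1d, a serotonin receptor gene, had 1.26 and 1.36 FPKM with LacZ, 1.43 and 1.20 FPKM with HDAC4 wt, and 1.25 and 0.975 FPKM with HDAC4 3SA. Car11, of the carbonic anhydrase family, had 26.2 and 29.0 FPKM with LacZ, 30.2 and 24.7 FPKM with HDAC4 wt, and 28.1 and 23.0 FPKM with HDAC4 3SA. Without Prrxl1 in the mean, the nearest were Hoxb3, Sidt1 and Car11, with Hoxb3, a homeobox gene of anterior cord and hindbrain, at 15.6 and 18.5 FPKM with LacZ, 19.1 and 15.5 FPKM with HDAC4 wt, and 18.2 and 13.8 FPKM with HDAC4 3SA.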

How the data were processed

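RNAseq was analysed for dorsal spinal tissue of 18 mice in 6 groups of 3. The authors mapped strand-specific poly-A reads to GRCm38 with TopHat and Bowtie and used Cufflinks and Cuffdiff. They deposited 1 table per vector with FPKM values, each value covering the 3 mice of a group. The deposited fold change, test statistic, p-value and q-value columns hold the study's own comparisons and were not used. Without counts or depth the precision of a value is unknown.

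Names were matched to the gene column and loci joined between tables by identifier. For 386 identifiers the places did not overlap between tables, and these were left out. Log2 changes used 0.1 FPKM added, and the background used loci with a mean of at least 0.5 FPKM. Row strands were taken from row order and compared with GENCODE M21. Promoter sequences are from RefSeq (GRCm38.p6). Scripts (Python 3.11.15, pandas 2.3.3, numpy 2.4.6) were tested on simulated data. Named are the members, genes of the lists that define a cell type or pass the fold, and the 3 nearest profiles. Other named genes were chosen after their values were seen. A few genes of the lists are not named here. The members and lists were chosen with earlier results of these data known. Alternatives covered the FPKM added, the scale, the fold, the minimum level and the rows or genes summed.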

Additional observations from a re-analysis of the deposited data

How the results depend on the processing

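Of 144 recomputed changes of single members, 137 kept their sign and their side of the fold. Part of the 137 were the same by construction. The annotated-strand setting reread the row already used for every member but Prrxl1, which gave 21 of them. Summing the rows of a name likewise changed nothing for members with 1 row. With HDAC4 3SA, Tlx3 came to -0.43 with 1 FPKM added, and, relative to the pan-neuronal sum, Lmx1b came to -0.44, Tlx3 to -0.37 and Maf, with its sign turned, to 0.034. Snap25 had the highest level in that sum and went from 861 to 646 FPKM with HDAC4 3SA. On the annotated strand, Prrxl1 turned to -0.26, -0.19 and -0.69 with LacZ, HDAC4 wt and HDAC4 3SA. Members past the fold numbered 2, 5 and 5 with these vectors beyond 0.25. With HDAC4 3SA they numbered 0 beyond 1, 1 with 1 FPKM added, 0 relative to the pan-neuronal sum and 3 with the annotated row of Prrxl1. The share of all loci past the fold was 4.58%, 9.25% and 10.6% at a mean of at least 5 FPKM, and 15.2% for LacZ with no minimum. The log2 change of the excitatory to inhibitory ratio was 0.11, 0.10 and -0.06. With HDAC4 wt it turned to -0.051 without Prrxl1 and to -0.049 with its annotated row. With HDAC4 3SA it turned to 0.036 with geometric means, to 0.13 without Lmx1b and to 0.014 without Pax2, and it came to -0.26 both without Prrxl1 and with its annotated row. The cause was not tested. Centring on loci above 5 FPKM changed no call at 0.5, but Pax2 with HDAC4 3SA came to -0.251 under it and to -0.252 with 0 FPKM added, past the limit of 0.25. The annotated rows, the sums without Maf or Prrxl1 relative to pan-neuronal genes and the ratio to motor neuron genes were chosen after seeing the data. No paired analysis was possible because the tables hold 1 value per group, and leaving out replicates and count tests were not run for the same reason.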

Other observations

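Several glial and macrophage genes, chosen after their values were seen, stood at higher levels in the HDAC4 wt and HDAC4 3SA tables than in the LacZ table, and others of the same lists did not. Gfap, the intermediate filament gene of astrocytes, had 389 and 415 FPKM with LacZ (saline, then CFA), 807 and 1025 FPKM with HDAC4 wt, and 805 and 1094 FPKM with HDAC4 3SA. C1qa, a complement gene of microglia, had 37.5 and 49.9 FPKM with LacZ, 360 and 486 FPKM with HDAC4 wt, and 254 and 500.0 FPKM with HDAC4 3SA. Ms4a7, a macrophage gene, had 0.515 and 0.804 FPKM with LacZ, 19.4 and 26.7 FPKM with HDAC4 wt, and 11.3 and 27.9 FPKM with HDAC4 3SA. Slc1a2, a glutamate transporter of astrocytes, went the other way in saline mice, with 191 FPKM with LacZ, 159 FPKM with HDAC4 wt and 173 FPKM with HDAC4 3SA. P2ry12, a microglial receptor gene, had 11.1, 13.9 and 13.6 FPKM in the same saline groups. These levels come from separate runs and are set side by side only.

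Skeletal muscle genes differed in direction between the vectors, with median log2 changes over 7 genes of 1.09 with LacZ, -1.71 with HDAC4 wt and -0.36 with HDAC4 3SA. The 8 genes of meningeal fibroblasts had medians of 0.42, 0.14 and 0.16, the 7 of astrocytes -0.08, 0.15 and -0.03, and the 7 of oligodendrocytes 0.03, 0.21 and 0.12.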
